A study of Homo sapiens with 12 samples.

Results

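Cytosolic ribosomal protein genes encode the proteins of the large and the small subunit of the ribosome that translates nuclear messenger RNA. They were taken as the protein-coding genes named RPLP0, RPLP1, RPLP2, RPSA, or RPL or RPS with a number and an optional A, X or L, without the S6 kinases, RPS4Y1, pseudogenes and antisense genes. Of 57500 gene IDs in the count table, 84 met the symbol rule and 83 had at least 10 counts in 3 libraries, 51 of the large and 32 of the small subunit. RPL10L was left out because it had 0 counts in all 12 libraries. RPL3L was the member nearest to the limit, with 10 counts or more in 5 libraries and 2 to 21 counts over all of them, and the next, RPS27L, had 59 to 157 counts. The rule leaves out some genes that also encode ribosomal proteins, such as RPL36AL and FAU.

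Ribosomal proteins assemble with ribosomal RNA in the nucleolus, so a cell makes them in nearly matched amounts, and their messenger RNAs are among the most abundant of a dividing cell. Most of these messenger RNAs begin with a C followed by further pyrimidines, the terminal oligopyrimidine (TOP) motif, through which mTORC1 and the RNA-binding protein LARP1 set their translation and stability together. Many of the genes carry small nucleolar RNA (snoRNA) genes in their introns. Some free ribosomal proteins act outside the ribosome, RPL5 and RPL11 above all, which bind and restrain MDM2.

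The cells were OE33, an epithelial line from a human oesophageal adenocarcinoma, profiled by polyA RNA sequencing in 4 groups of 3 libraries. The group rABS+shAPE1 held cells that had survived repeated acidified bile salts (200 µM at pH 5.5, 20 min a day for 15 days) and were then stably transduced with a hairpin against APE1, a base excision repair endonuclease encoded by APEX1. The group rABS+shCtrl held survivors transduced with a non-targeting hairpin, rABS held survivors without transduction, and Parental held untreated cells. Each hairpin arm rests on 1 hairpin as far as the labels say, so an effect of that hairpin and an effect of APE1 loss cannot be told apart, and both differ from Parental in exposure, selection and transduction together. The series describes the replicates as independent, but not from how many separate selections or transductions they came, so p-values measure the spread between these samples.

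Library totals ran from 15736087 to 23010377 gene counts. APEX1 had 4.42, 4.5 and 5.88 CPM (counts per 1e+06 counts of the scaled library) in rABS+shAPE1, against 62, 56.5 and 60.9 CPM in rABS+shCtrl, so the targeted messenger RNA stood at 8.2% of the control hairpin (log2 fold change -3.61 ± 0.11 SE, adjusted p = 3.75e-22, edgeR). APEX1 had 79.9 to 84.5 CPM in rABS and 52.9 to 56.9 CPM in Parental. All 8 epithelial markers were expressed, with a sum of 12484 to 13335 CPM in rABS+shAPE1, 14006 to 15391 CPM in rABS+shCtrl, 13647 to 16017 CPM in rABS and 15446 to 18747 CPM in Parental. Of other cell types, 6 leukocyte markers summed to 5.61 to 11.9 CPM and 4 endothelial markers to 0.336 to 1.45 CPM. The 6 fibroblast markers summed to 7.42 to 8.3 CPM in rABS+shAPE1, 9.48 to 10 CPM in rABS+shCtrl, 3.53 to 4.22 CPM in rABS and 20.9 to 27.1 CPM in Parental, with 3 to 5 of them at 0 counts in each library. Mitochondrially encoded messenger RNAs took 3.1 to 4.2% of counts in rABS+shAPE1, 2.6 to 3.28% in rABS+shCtrl, 2.66 to 3.62% in rABS and 1.88 to 2.73% in Parental, and the part of these marker and mitochondrial shifts in the values below was not tested. Within groups, libraries deviated along the GC content of transcripts, with correlations over 9373 genes from -0.69 in Parental replicate 2 to 0.6 in Parental replicate 1. Among ribosomal protein genes rABS+shAPE1 replicate 2 stood farthest from its group, with a mean deviation of -0.1 on the log2 scale and the lowest value of its group in 53 of 83 members.

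The starts of the messenger RNAs are shown because the TOP motif is common among these genes, though not found at every annotated start. Windows of 30 bases run from 10 bases before to 20 bases after the start annotated by RefSeq (GRCh38.p14), and capitals mark the run of C and T that begins at the first transcribed base.
RPLP0: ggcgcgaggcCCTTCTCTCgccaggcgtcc
RPL12: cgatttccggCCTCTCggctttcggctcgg
RPL3: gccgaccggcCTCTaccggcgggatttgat
RPL41: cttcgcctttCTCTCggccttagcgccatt
RPL13A: aaacctcctcCTTTTCCaagcggctgccga
RPL7A: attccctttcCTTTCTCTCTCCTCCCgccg
RPSA: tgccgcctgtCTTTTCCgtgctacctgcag
RPS6: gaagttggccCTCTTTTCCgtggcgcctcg
RPL4: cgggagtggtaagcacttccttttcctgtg
RPS26: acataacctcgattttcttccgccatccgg
RPL22: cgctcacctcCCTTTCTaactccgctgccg
RPL22L1: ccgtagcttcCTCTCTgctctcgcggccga
RPL7L1: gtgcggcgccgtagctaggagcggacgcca
RPL26L1: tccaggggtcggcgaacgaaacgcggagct

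The windows of RPLP0 (chr12:120201092-120201121, minus strand), RPL12 (chr9:127451387-127451416, minus strand) and RPL3 (chr22:39319604-39319633, minus strand) belong to the 3 genes with the largest falls in rABS against Parental. Those of RPL4 (chr15:66504836-66504865, minus strand) and RPS26 (chr12:56041908-56041937, plus strand) hold a pyrimidine stretch a few bases inside the annotated transcript and none at its first base, which says nothing about the start used in these cells. RPL41 (chr12:56116623-56116652), RPL13A (chr19:49487598-49487627), RPL7A (chr9:133348208-133348237) and RPSA (chr3:39406710-39406739) lie on the plus strand, and RPS6 (chr9:19380217-19380246) on the minus strand. RPL22 (chr1:6199576-6199605, minus strand) and its paralog RPL22L1 (chr3:170870176-170870205, minus strand) both begin with pyrimidines. RPL7L1 (chr6:42879606-42879635) and RPL26L1 (chr5:172958719-172958748), both on the plus strand, do not. A RefSeq promoter window was matched for 66 of the 83 members. In 43 of them (65.2%) the first 5 transcribed bases were all C or T, against 5.22% of 27305 RefSeq promoters and 5.65% of those of genes tested, and among the L paralogs this held for 1 of 4. The letters CCGGAAG, the core of an ETS site, were found on either strand within 250 bases before to 50 after the start in 34.8% of the 66 windows, against 10.7% of all promoters and 18.6% of those of 11047 genes tested. AAGATGGC, the core of a YY1 site, was found in 7 of the 66 (10.6%), against 3.03% of all promoters and 5.25% of those of genes tested.

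Ribosomal protein messenger RNA made up 4.29 ± 0.26% of gene counts in rABS+shAPE1, 4.05 ± 0.074% in rABS+shCtrl, 4.12 ± 0.21% in rABS and 4.63 ± 0.24% in Parental (SD, n = 3 each). After TMM scaling, the members summed to 42409 ± 2102 CPM in rABS+shAPE1, 38476 ± 856 CPM in rABS+shCtrl, 40575 ± 2238 CPM in rABS and 50374 ± 2969 CPM in Parental. All 9 exposed libraries lay between 37494 and 44225 CPM, below the 3 Parental libraries at 47343, 50501 and 53276 CPM. That separation rests on the scaling. As shares of gene counts the groups overlapped, with 4.49% in rABS+shAPE1 replicate 3 and 4.4% in Parental replicate 2. In bulk RNA of this kind, fewer cells of a type and less RNA per cell cannot be told apart.

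**Figure D1:**
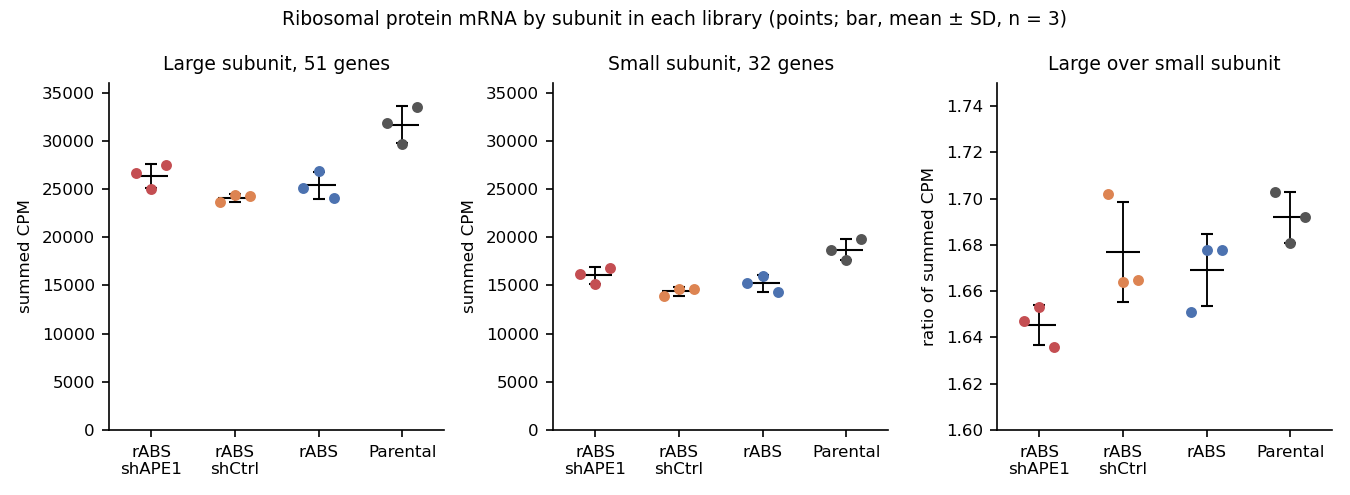
Summed CPM of the 51 large-subunit genes (left) and the 32 small-subunit genes (middle) and their ratio (right, axis from 1.6) in each library; points are libraries, bars the mean ± SD of 3. Both subunits were highest in Parental, and the ratio lay between 1.636 and 1.703 in all 12 libraries.

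The large subunit summed to 26375 ± 1261 CPM in rABS+shAPE1, 24101 ± 423 CPM in rABS+shCtrl, 25372 ± 1411 CPM in rABS and 31662 ± 1902 CPM in Parental. The small subunit summed to 16034 ± 842, 14375 ± 433, 15204 ± 834 and 18712 ± 1069 CPM in the same groups. Their ratio was 1.645 ± 0.009 in rABS+shAPE1, 1.677 ± 0.022 in rABS+shCtrl, 1.669 ± 0.016 in rABS and 1.692 ± 0.011 in Parental. The rABS+shAPE1 libraries, at 1.647, 1.653 and 1.636, lay below those of rABS+shCtrl, at 1.702, 1.664 and 1.665, so the groups did not overlap. The distance between the nearest libraries was smaller than the SD of rABS+shCtrl. A ratio of sums also leans on the most abundant genes. RPS2 alone averaged 4472 CPM in rABS+shAPE1 and 3477 CPM in rABS+shCtrl, and its part in the lower ratio was not tested. The ratios of rABS (1.651, 1.678 and 1.678) lay just below those of Parental (1.703, 1.681 and 1.692). The mean log2 CPM of the large minus that of the small subunit overlapped between the groups over all 83 members, at -0.29 to -0.25 in rABS+shAPE1, -0.31 to -0.22 in rABS+shCtrl, -0.32 to -0.28 in rABS and -0.31 to -0.26 in Parental. Over the 77 members without the L paralogs it was 0.02 to 0.04 in rABS+shAPE1, 0.01 to 0.08 in rABS+shCtrl, 0.02 to 0.05 in rABS and 0.07 to 0.09 in Parental, so that rABS+shAPE1 and rABS lay below Parental without overlap while rABS+shAPE1 overlapped rABS+shCtrl.

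Levels differed far more between genes than between groups. Per kilobase of transcript, the 77 members other than the L paralogs ran from 35.4 CPM per kb for RPL17 to 5545 CPM per kb for RPL19, with a median of 419.8 CPM per kb over 12 libraries. Length was that of 1 annotated transcript per gene, with a median of 815 bases and a highest of 7686 bases for RPL37. The transcript used in these cells was not tested, so levels per kilobase are uncertain. RPL17 and RPL36A overlap readthrough genes and their reads can be split with these, so both levels are uncertain. RPL19, a protein of the large subunit near the exit of the peptide tunnel, and RPS2, a small-subunit protein at the messenger RNA entry, held 9.1 to 10.0% and 8.6 to 11.3% of all ribosomal protein CPM in a library. RPL19 had 4104, 3761 and 4429.8 CPM in rABS+shAPE1, 3479, 3733 and 3633 CPM in rABS+shCtrl, 3832, 3889 and 3812 CPM in rABS and 4592, 4658 and 5120.5 CPM in Parental. It lies at chr17:39200283-39204732 (GRCh38), 483 kb from ERBB2, a receptor gene whose amplification OE33 is known for, and the part of copy number in its level was not tested. Processed pseudogenes of the family took 1.05 to 1.29% as many counts as the members. Set against the gene's own counts, the copies of RPL13 (32.1%), RPL36A (24.6%) and RPL17 (13.5%) held the largest shares, so by this measure the levels of these 3 genes are the least certain.

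Where ribosomal protein genes were called in exposed survivors, nearly all were lower than in untreated cells. In rABS against Parental 37 of the 83 members fell, 2 rose and 44 did not pass the test, where a call is an edgeR quasi-likelihood test with a Benjamini-Hochberg adjusted p under 0.05 over 15805 genes. Of all genes tested 59.8% were called, 29.9% lower and 29.9% higher, beside 47% of the members. The 3 libraries of each group did not overlap for 38 members that were lower and 5 that were higher in rABS, beside 31.6% and 31.5% of all genes. Their median log2 fold change was -0.181, beside -0.007 over all genes. Large-subunit genes gave 24 lower and 1 higher of 51 (median -0.151) and small-subunit genes 13 lower and 1 higher of 32 (median -0.187). A pooled SD of 0.0527 between replicate libraries belongs to another measure, the median log2 CPM of the large minus that of the small subunit. Those library medians averaged 8.58 (large) and 8.37 (small) in Parental, and 8.32 and 8.27 in rABS. They averaged 8.25 and 8.27 in rABS+shAPE1, and 8.24 and 8.14 in rABS+shCtrl. A difference between the subunits was not tested. The direction of the calls rests partly on scaling: with library totals alone the median of all genes moved to 0.13. In that setting 25 members were called lower and 15 higher. The members' median was -0.17 from that of all genes under both scalings. Scaling shifts all genes of a comparison alike, so that distance could not test the dependence.

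**Figure D2:**
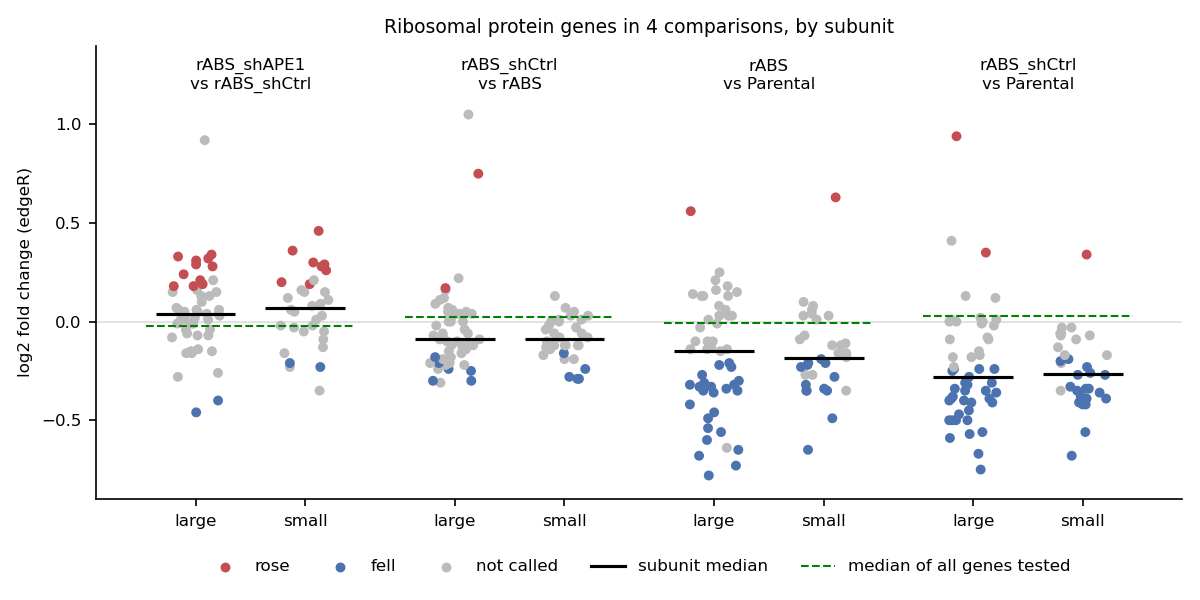
Log2 fold change of each of the 83 genes in 4 comparisons, split by subunit; colour gives the call at adjusted p under 0.05, black lines the subunit median and dashed lines the median of all 15805 genes. In rABS against Parental 37 points are called lower and 2 higher, and in rABS+shAPE1 against rABS+shCtrl 19 are called higher and 4 lower.

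RPL3, a protein of the peptidyl transferase region, fell most. It had 1203, 1212 and 1120.1 CPM in rABS, against 1985, 1942 and 2128 CPM in Parental. The groups were far apart, and the log2 fold change was -0.78 ± 0.07 (SE), with an adjusted p of 6.22e-12.

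RPL12, which forms the base of the ribosomal stalk, had 521, 605 and 543 CPM in rABS, against 908, 846 and 1011 CPM in Parental, a log2 fold change of -0.73 ± 0.07 (adjusted p = 7.93e-11). RPLP0, the stalk protein on which RPLP1 and RPLP2 dimers sit, had 1212, 1284 and 1101 CPM in rABS, against 1916, 1807 and 2052 CPM in Parental (log2 fold change -0.68 ± 0.07, adjusted p = 1.96e-10). Every exposed library was below every Parental one for both genes. The dimer partners did not pass the test: RPLP1 had 239.7, 254 and 200.2 CPM in rABS, against 280.1, 224 and 258 CPM in Parental (adjusted p = 0.2), and RPLP2 had 225, 256 and 195 CPM in rABS, against 285, 197 and 261 CPM in Parental (adjusted p = 0.378). For these 2 genes the groups overlapped.

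RPL41, a very short basic protein at the subunit interface, had 233, 285 and 221 CPM in rABS, against 379, 354 and 428 CPM in Parental (-0.65 ± 0.12 log2, adjusted p = 0.000309). RPS2 was the small-subunit gene that fell most, with 3509.5, 3685 and 3492 CPM in rABS, against 5521, 5214 and 5992 CPM in Parental (-0.65 ± 0.06 log2, adjusted p = 2.04e-10). Both sets of libraries were separate. RPL4, which lines the peptide tunnel, and RPL13A, which is also known as part of an inhibitory complex on interferon-induced messenger RNAs, fell by 0.56 and 0.54 on the log2 scale (adjusted p = 4.22e-08 and 2.7e-08, edgeR). RPS9, RPL7A, RPS14 and RPS27A, which is made as a fusion with ubiquitin, fell by 0.49, 0.42, 0.35 and 0.35.

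RPL5 and RPL11, which travel to the ribosome in 1 particle and bind MDM2, differed in their calls. RPL5 had 542, 546 and 511 CPM in rABS, against 719, 756 and 765 CPM in Parental (-0.49 ± 0.11 log2, adjusted p = 0.000442). RPL11 had 144, 155 and 131 CPM in rABS, against 161, 140.3 and 158 CPM in Parental, with overlapping groups (adjusted p = 0.262). Whether their changes differ from each other was not tested.

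Among other members of known role, RPS6, RPS3 and RPS19 showed no call and RPSA was called lower. RPS6, the small-subunit protein phosphorylated by the S6 kinases, had 915, 929.5 and 835 CPM in rABS, against 1055, 1048 and 1124 CPM in Parental; the groups did not overlap, but its adjusted p was 0.0852. RPS3, which lies at the messenger RNA entry and is also known as a lyase on damaged DNA, had 535, 561 and 489 CPM in rABS, against 545, 479.8 and 530 CPM in Parental (adjusted p = 0.755). RPS19, the gene most often mutated in Diamond-Blackfan anaemia, had 309, 365 and 291 CPM in rABS, against 341, 269 and 346 CPM in Parental (adjusted p = 0.9). RPSA, the laminin receptor precursor, was called lower by 0.22 on the log2 scale (adjusted p = 0.00489, edgeR). The call was lost without Parental replicate 3 (log2 -0.17, adjusted p = 0.0539) and with library totals alone (log2 -0.08, adjusted p = 0.296).

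RPS26 and RPL7L1 were the 2 members that rose. RPS26, which lies at the messenger RNA exit of the small subunit, had 71.2, 75.2 and 67.3 CPM in rABS, against 45.5, 43.7 and 49.3 CPM in Parental (0.63 ± 0.08 log2, adjusted p = 4.45e-08). The groups were separate, and RPS26 has 36 annotated pseudogenes here, which held 1.6% as many counts as the gene. FAU, which encodes the small-subunit protein eS30 fused to a ubiquitin-like protein and lies outside the symbol rule, had 271, 298 and 258 CPM in rABS, against 182, 160 and 189.7 CPM in Parental (0.64 ± 0.08 log2, adjusted p = 4.24e-08).

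**Figure D3:**
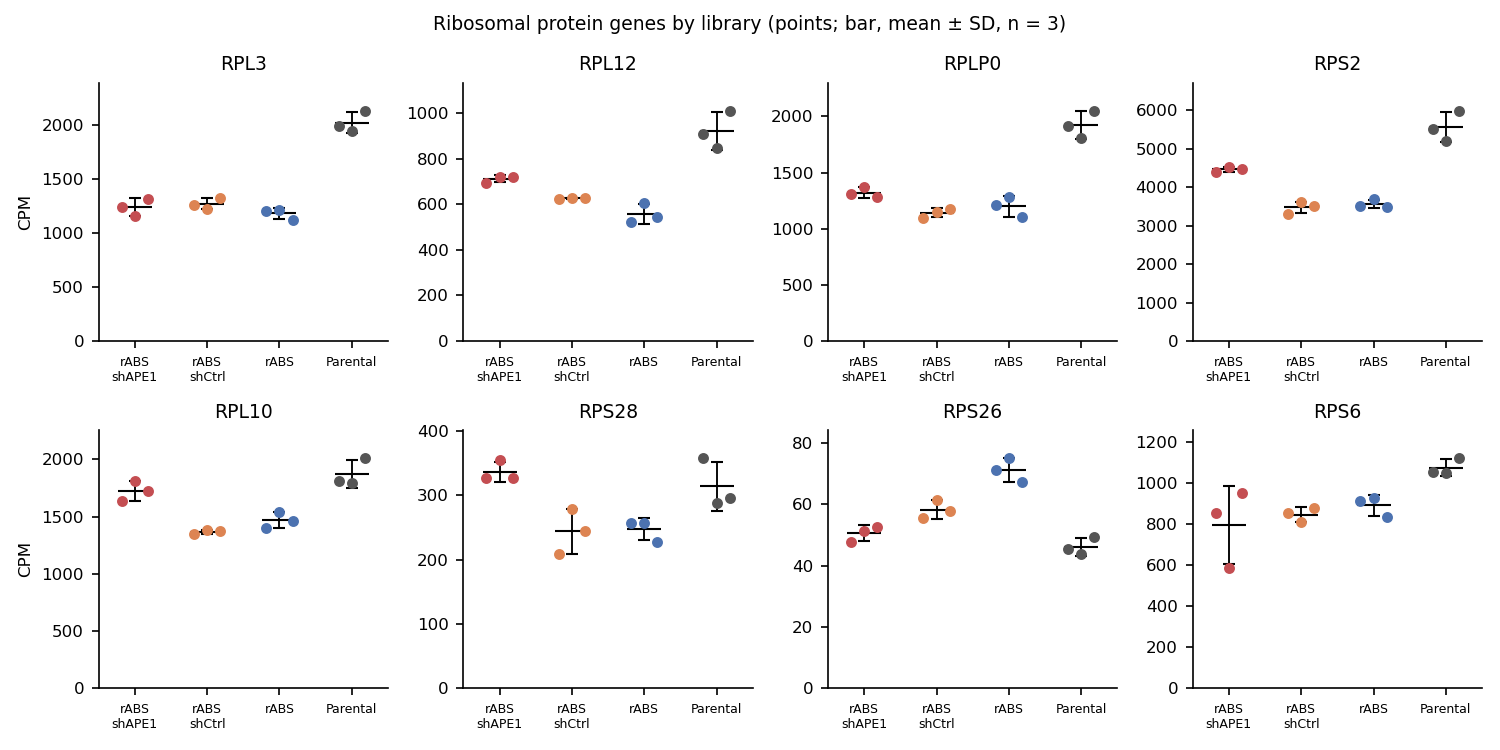
CPM of 8 ribosomal protein genes in each library (points; bars, mean ± SD of 3; each axis starts at 0). RPL3, RPL12, RPLP0 and RPS2 were highest in Parental, RPS26 was highest in rABS, RPS28 and RPL10 were higher in rABS+shAPE1 than in rABS+shCtrl, and RPS6 has 1 low library in rABS+shAPE1.

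The fall was graded by level. Over the 77 members other than the L paralogs, the log2 fold change of rABS against Parental correlated with the mean log2 CPM at r = -0.58 (Spearman rho -0.54), beside -0.08 over 12636 genes with a coding transcript. Of the 20 members with the highest mean CPM 16 fell and 0 rose (median -0.34), while of the 20 with the lowest CPM outside the L paralogs 4 fell and 1 rose (median -0.01). These are correlations across genes of the same libraries and the genes are not independent. Per kilobase of the annotated transcript, whose length is uncertain for some genes, the correlation was -0.48. RPL8, chosen after its values were seen as a highly expressed member without a call, had 2344, 2535 and 2109 CPM in rABS, against 2695, 2186 and 2599.7 CPM in Parental (adjusted p = 0.302).

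**Figure D4:**
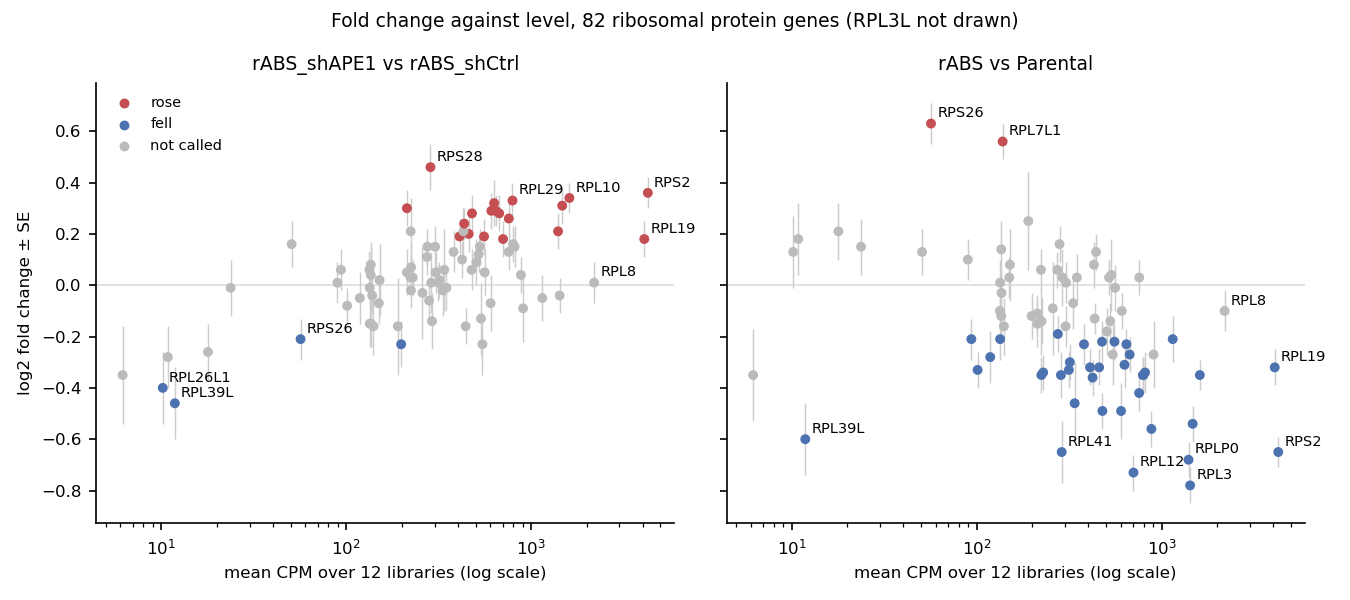
Log2 fold change ± SE against mean CPM (log scale) of 82 ribosomal protein genes in rABS+shAPE1 against rABS+shCtrl (left) and rABS against Parental (right); colour gives the call. Of the 20 most abundant genes 12 are called higher and 0 lower on the left, and 16 lower and 0 higher on the right; r is 0.47 and -0.58 over 77 genes without the L paralogs.

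The counts were given by annotated start and by snoRNA genes. Of 43 members whose first 5 bases were all pyrimidine, 18 fell and 0 rose (median -0.15), and of the 23 others, 11 were called lower and 2 higher (median -0.23). Of the 28 members with snoRNA genes inside, 14 fell and 0 rose (median -0.19), and of the 55 others, 23 were called lower and 2 higher (median -0.18). No test of these subsets was made.

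Survivors with the control hairpin also had lower ribosomal protein levels than untreated cells. In rABS+shCtrl against Parental 49 of 83 members fell, 3 rose and 31 did not pass the test, with 26.1% of all genes called lower and 27% higher, 53.1% in all. Groups did not overlap for 48 members that were lower and 3 that were higher in rABS+shCtrl, beside 28.7% and 29.9% of all genes. The median was -0.273, beside 0.026 over all genes, and large- and small-subunit genes had medians of -0.277 and -0.266. This comparison shares the Parental libraries with that of rABS, so the values of the members stand side by side and are not independent. RPLP0 changed by -0.75 in rABS+shCtrl and -0.68 in rABS, RPS2 by -0.68 and -0.65, RPL3 by -0.67 and -0.78, RPL41 by -0.59 and -0.65, and RPL31 by -0.57 and -0.46 on the log2 scale. All 20 of the members with the highest CPM fell in rABS+shCtrl. RPL11, called in this comparison and not in that of rABS, had 116, 117 and 115 CPM in rABS+shCtrl, against 161, 140.3 and 158 CPM in Parental (-0.4 ± 0.07 log2, adjusted p = 2.43e-05). With library totals alone the median of all genes moved to 0.22, and 22 members were called lower and 8 higher. RPL31 was no longer called (adjusted p = 0.0732, edgeR). The members' median was -0.3 from that of all genes under both scalings, a distance that scaling cannot change because it shifts all genes alike. The members that rose were RPL22L1, RPL7L1 and RPS26.

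Few ribosomal protein genes were called between survivors with the control hairpin and survivors without one. In rABS+shCtrl against rABS 11 of 83 members fell, 2 rose and 70 did not pass the test, a share of 15.7% where 36.5% of all genes were called, 18.6% lower and 17.9% higher. Groups did not overlap for 13 lower and 4 higher members, beside 24.3% and 24.1% of all genes. The median was -0.089, beside 0.022 over all genes, and was -0.089 and -0.088 for the large and small subunit. RPL11 had 116, 117 and 115 CPM in rABS+shCtrl, against 144, 155 and 131 CPM in rABS (-0.3 ± 0.07 log2, adjusted p = 0.00136). RPS26 had 55.6, 61.6 and 57.8 CPM in rABS+shCtrl, between rABS and Parental (-0.29 ± 0.08 log2 against rABS, adjusted p = 0.0044). RPL22L1 rose and is described with its pair. With library totals alone 4 members were called lower and 4 higher, and with offsets for GC content 7 lower and 5 higher. The count of 13 moved with single libraries: it was 7 without rABS replicate 1, 5 without rABS replicate 2, 6 without rABS+shCtrl replicate 1 and 5 without rABS+shCtrl replicate 3. RPL36 and RPS27, 2 of the 5 largest called falls, and RPL12, the other gene called higher, each had an adjusted p above 0.05 without several single libraries: up to 0.183 for RPL36 and 0.177 for RPS27 without rABS replicate 2, and up to 0.259 for RPL12 without rABS replicate 1.

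With the APE1 hairpin, ribosomal protein genes that were called were mostly higher, by small amounts. In rABS+shAPE1 against rABS+shCtrl 19 of 83 members rose, 4 fell and 60 did not pass the test, with 17.8% of all genes called higher and 18.8% lower, 36.6% in all. The members' share called was 27.7%. Groups did not overlap for 23 higher and 6 lower members, beside 22.6% and 24.3% of all genes. The median was 0.054, beside -0.02 over all genes. Large-subunit genes gave 11 higher and 2 lower of 51 (median 0.036) and small-subunit genes 8 higher and 2 lower of 32 (median 0.074). Only RPS28 stayed called when the test asked for a fold above 1.2. Without rABS+shAPE1 replicate 2, 24 members were called higher and 3 lower, and 17 of the 23 calls were shared. The split depended on scaling: it was 13 higher and 7 lower with library totals alone and 22 higher and 1 lower with upper-quartile factors.

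RPS28, a small-subunit protein next to the messenger RNA channel, had 327, 354 and 326 CPM in rABS+shAPE1, against 209, 279 and 245 CPM in rABS+shCtrl. The groups were separate, and the log2 fold change was 0.46 ± 0.09 (adjusted p = 7.19e-05). RPS2 had 4404, 4534 and 4479 CPM in rABS+shAPE1, against 3311, 3604 and 3515 CPM in rABS+shCtrl (0.36 ± 0.06 log2, adjusted p = 2.7e-05). RPL10, which joins the large subunit late in its assembly, had 1639.8, 1809.9 and 1723 CPM in rABS+shAPE1, against 1345, 1379 and 1376 CPM in rABS+shCtrl (0.34 ± 0.06 log2, adjusted p = 9.95e-05). Every library with the APE1 hairpin was above every library with the control hairpin for these 3 genes.

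RPL29 and RPL28, both of the large subunit, rose by 0.33 and 0.32 on the log2 scale (adjusted p = 0.000308 and 0.00476, edgeR). The call of RPL28 was lost without rABS+shAPE1 replicate 2 (log2 0.22, adjusted p = 0.0565). RPL23A, which binds nascent chains at the tunnel exit, rose by 0.28 (adjusted p = 0.00166). RPLP0 had 1312, 1375 and 1281 CPM in rABS+shAPE1, against 1099.8, 1145 and 1179.7 CPM in rABS+shCtrl (0.21 ± 0.07 log2, adjusted p = 0.0125), and lost its call without rABS+shCtrl replicate 1 (adjusted p = 0.0679) and with library totals alone (adjusted p = 0.0557). RPL3 had 1239.8, 1153 and 1316 CPM in rABS+shAPE1, against 1257, 1223 and 1324 CPM in rABS+shCtrl (adjusted p = 0.718), so the gene with the largest fall in rABS against Parental showed no call here.

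The 4 members called lower were RPL39L, RPL26L1, RPS24 and RPS26. RPS24, a small-subunit protein, had 183, 142 and 179 CPM in rABS+shAPE1, against 203, 196 and 192 CPM in rABS+shCtrl (-0.23 ± 0.09 log2, adjusted p = 0.0427). RPS26 had 47.8, 51.5 and 52.7 CPM in rABS+shAPE1, against 55.6, 61.6 and 57.8 CPM in rABS+shCtrl (-0.21 ± 0.08 log2, adjusted p = 0.0427). Both calls were lost with RLE scaling, upper-quartile scaling, DESeq2 and the replicate block, and each without any of 6 single libraries, with adjusted p up to 0.328 for RPS24 without rABS+shAPE1 replicate 2 and up to 0.178 for RPS26 without rABS+shAPE1 replicate 1.

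Some members were low in rABS+shAPE1 replicate 2 alone. RPS6 had 856, 586 and 954 CPM in rABS+shAPE1, against 853, 809 and 881 CPM in rABS+shCtrl (adjusted p = 0.656). RPL35, next to the tunnel exit, had 188, 115 and 196 CPM in rABS+shAPE1, against 177, 198 and 183 CPM in rABS+shCtrl (adjusted p = 0.575). RPL5 had 589, 419 and 649 CPM in rABS+shAPE1, against 620.5, 536 and 585 CPM in rABS+shCtrl (adjusted p = 0.651). RPL31, RPS3A and RPS7 were likewise lower in that library than the mean of its group's others, by -0.72, -0.63 and -0.59 on the log2 scale, while RPL28 and RPS23 were higher there by 0.27 and 0.2. These were chosen after their values were seen.

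The comparisons of rABS+shAPE1 with rABS+shCtrl and of rABS with Parental share no library. Of the 37 members that fell in rABS, 15 (40.5%) rose with the APE1 hairpin, 1 fell and 21 did not pass the test; these 15 were 78.9% of the 19 members that rose. Over all genes, 26.5% of those that fell in rABS rose with the APE1 hairpin, which was 44.6% of all that rose. Across the 83 members the log2 fold changes of the comparisons correlated at r = -0.37, and at -0.11 over 15805 genes. RPS2 changed by 0.36 with the APE1 hairpin and -0.65 in rABS, RPS28 by 0.46 and -0.35, RPL10 by 0.34 and -0.35, RPL13A by 0.31 and -0.54, and RPLP0 by 0.21 and -0.68 on the log2 scale. Fold change with the APE1 hairpin rose with level (r = 0.47 over 77 members without the L paralogs, and 0.06 over 12636 genes). It also rose with the GC content of the transcript (r = 0.41 over the same 77 members, and 0.18 over the same 12636 genes). Of the 20 most abundant members 12 rose and 0 fell, and of the 20 least abundant outside the L paralogs 0 rose and 2 fell. With offsets that flatten each library against GC content, 22 members were called higher and 3 lower.

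Over all 4 groups together, 62 of 83 members differed somewhere, beside 75.7% of all genes tested. RPL23, RPL39 and RPS3A were among the members with the highest adjusted p in that test, 0.842, 0.791 and 0.6 (edgeR).

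The L paralogs are close copies of a core protein, several of them known to take its place in some ribosomes. In the 5 pairs compared, the paralog's CPM was below its partner's in every library, with RPL7L1 the nearest to its partner. RPL22L1, a paralog of the large-subunit protein RPL22 that is known to be restrained by it, had 12.3, 13.4 and 10.7 CPM in rABS+shAPE1, 14.2, 15.2 and 14.9 CPM in rABS+shCtrl, 8.65, 8.55 and 9.03 CPM in rABS and 6.99, 7.16 and 8.96 CPM in Parental. It rose in rABS+shCtrl against rABS (0.75 ± 0.13 log2, adjusted p = 1.93e-05, edgeR) and against Parental (0.94 ± 0.13 log2, adjusted p = 2.72e-07), and did not pass the test in rABS against Parental (adjusted p = 0.257) or rABS+shAPE1 against rABS+shCtrl (adjusted p = 0.0747). RPL22 itself had 93.7, 97.8 and 86.3 CPM in rABS+shAPE1, 100.2, 98.9 and 94.9 CPM in rABS+shCtrl, 95.8, 97.7 and 90.7 CPM in rABS and 116, 114 and 127 CPM in Parental. The paralog thus stood at 13.1 ± 0.651% of its partner in rABS+shAPE1, 15.1 ± 0.794% in rABS+shCtrl, 9.25 ± 0.633% in rABS and 6.46 ± 0.537% in Parental (SD, n = 3 each), without overlap between any of the 4 groups.

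**Figure D5:**
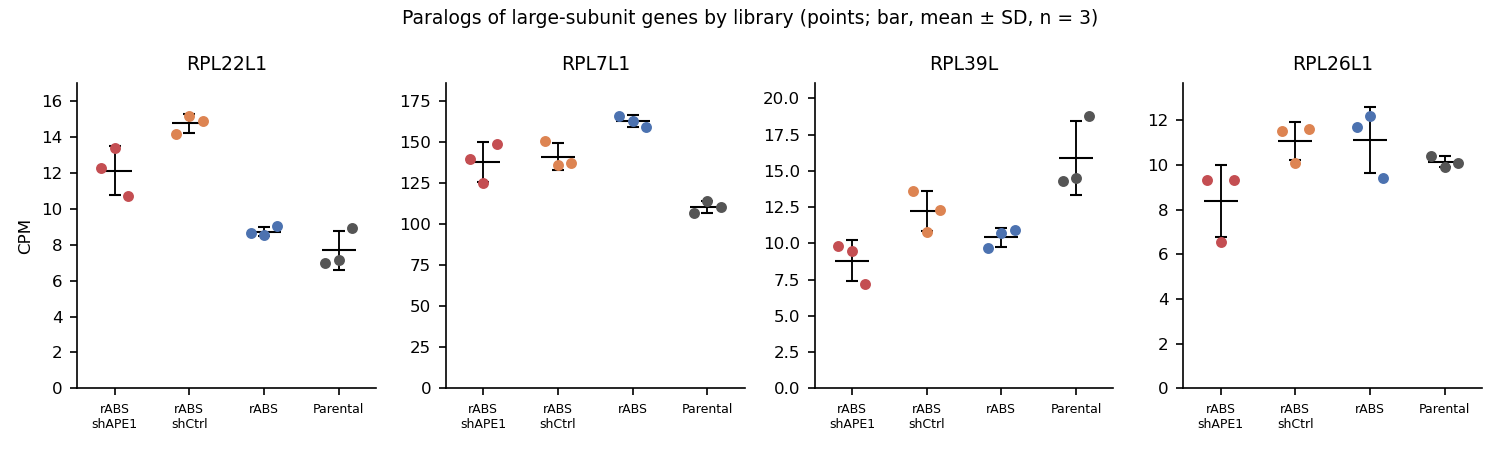
CPM of the L paralogs RPL22L1, RPL7L1, RPL39L and RPL26L1 in each library (points; bars, mean ± SD of 3). RPL22L1 was highest in rABS+shCtrl, RPL7L1 in rABS and RPL39L in Parental, and RPL26L1 was lowest in rABS+shAPE1.

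RPL7L1, a paralog of RPL7 known for a part in early large-subunit assembly, had 166, 163 and 159 CPM in rABS, against 107, 114 and 110.4 CPM in Parental (0.56 ± 0.07 log2, adjusted p = 4.31e-08, edgeR). RPL7 had 366, 404 and 381 CPM in rABS, against 476, 484 and 513 CPM in Parental (-0.36 ± 0.07 log2, adjusted p = 3.3e-05). The pair moved in opposite directions, and RPL7L1 stood at 42.5 ± 2.64% of RPL7 in rABS and 22.5 ± 1.05% in Parental. It stood at 32.6 ± 1.97% in rABS+shAPE1 and 35.9 ± 2.26% in rABS+shCtrl.

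RPL39L, a paralog best known from the testis, had 9.68, 10.7 and 10.9 CPM in rABS, against 14.3, 14.5 and 18.8 CPM in Parental (-0.6 ± 0.14 log2, adjusted p = 0.000311, edgeR), while RPL39 showed no call (adjusted p = 0.805). It also fell in rABS+shAPE1, with 9.79, 9.45 and 7.19 CPM, against 13.6, 10.8 and 12.3 CPM in rABS+shCtrl (-0.46 ± 0.14 log2, adjusted p = 0.00933), a call lost without rABS+shCtrl replicate 1 (adjusted p = 0.0604) and without rABS+shAPE1 replicate 3 (adjusted p = 0.081). RPL26L1 had 9.34, 6.53 and 9.31 CPM in rABS+shAPE1, against 11.5, 10.1 and 11.6 CPM in rABS+shCtrl (-0.4 ± 0.14 log2, adjusted p = 0.0278). That call was lost without rABS+shAPE1 replicate 2 (-0.24 log2, adjusted p = 0.217), rABS+shCtrl replicate 1 (adjusted p = 0.0839) or rABS+shCtrl replicate 3 (adjusted p = 0.0953). RPS27L, the paralog of the small-subunit protein RPS27, had 3.32 to 5.78 CPM in rABS+shAPE1, 5.65 to 6.66 CPM in rABS+shCtrl, 5.24 to 6.95 CPM in rABS and 6.32 to 9.69 CPM in Parental and was called in none of the 4 comparisons (adjusted p = 0.107 in rABS against Parental). RPL3L, a paralog of striated muscle, had at most 1.05 CPM in any library and was called in none.

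Genes around the ribosomal proteins were read from the same fit. As a baseline for the lists below, 29.9% of all genes tested rose and 29.9% fell in rABS against Parental (median -0.01). In rABS+shAPE1 against rABS+shCtrl 17.8% of all genes rose and 18.8% fell (median -0.02). The shares were 17.9% and 18.6% in rABS+shCtrl against rABS, and 27% and 26.1% in rABS+shCtrl against Parental. Of 22 translation factors and other genes with known TOP messenger RNAs, 14 fell and 1 rose in rABS against Parental (median -0.281). EEF1A1, the elongation factor that brings aminoacyl-tRNA, had 9945, 10492 and 9932 CPM in rABS, against 18453, 19348 and 20811 CPM in Parental (-0.95 ± 0.07 log2, adjusted p = 6.98e-13, edgeR). EIF4B, a helicase cofactor of initiation, fell by 0.84 and EIF3L by 0.85, and FAU was the gene that rose. In rABS+shAPE1 against rABS+shCtrl 8 of the 22 rose and 0 fell (median 0.132), led by EEF2, the translocation factor, with 2868, 3107 and 2812 CPM in rABS+shAPE1, against 1935, 2086 and 2079.7 CPM in rABS+shCtrl (0.53 ± 0.07 log2, adjusted p = 3.1e-07). In rABS+shCtrl against rABS 6 rose and 5 fell, and against Parental 1 rose and 18 fell.

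Of 13 non-coding or snoRNA host genes, 9 fell and 2 rose in rABS against Parental (median -0.378). SNHG8 had 13.1, 14.5 and 13.7 CPM in rABS, against 29.6, 27 and 27.5 CPM in Parental, and SNHG15 had 40, 39.5 and 37.2 CPM in rABS, against 20.3, 17.7 and 19.3 CPM in Parental. In rABS+shAPE1 against rABS+shCtrl 5 rose and 1 fell.

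Factors that chaperone ribosomal proteins or assemble the subunits went the other way from the ribosomal proteins in rABS against Parental, with 16 of 24 higher and 5 lower (median 0.627). MRTO4, which holds the place of RPLP0 on the growing large subunit, had 26.2, 27.9 and 27.1 CPM in rABS, against 7.13, 6.97 and 9.02 CPM in Parental (1.81 ± 0.12 log2, adjusted p = 5.89e-15, edgeR). GRWD1, a chaperone of RPL3, had 81.4, 81.4 and 77.4 CPM in rABS, against 27.5, 24.2 and 25.8 CPM in Parental (1.63 ± 0.08 log2, adjusted p = 7.24e-18). NOB1, the nuclease that matures the small-subunit RNA, fell by 1.13. RPLP0 and RPL3 were lower, and both of these factors higher, in the same libraries. In rABS+shAPE1 against rABS+shCtrl 3 rose and 5 fell, led by RRS1, which helps place the RPL5 and RPL11 particle, with 13.9, 12.3 and 13.6 CPM in rABS+shAPE1, against 26.5, 24.9 and 26.9 CPM in rABS+shCtrl (-0.97 ± 0.12 log2, adjusted p = 6.78e-08). In rABS+shCtrl against rABS 4 rose and 6 fell, and against Parental 15 rose and 5 fell.

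Of 17 genes of mTORC1 signalling and LARP-family proteins 7 rose and 7 fell in rABS against Parental. The mTORC1 inhibitors DDIT4 and SESN2 fell most: DDIT4 had 49.1, 53.5 and 42.1 CPM in rABS, against 630.3, 527 and 588 CPM in Parental (-3.59 ± 0.09 log2, adjusted p = 1.94e-25, edgeR). In rABS+shAPE1 against rABS+shCtrl 6 rose and 2 fell, among them EIF4E, the cap-binding factor, which fell by 0.65. Of 14 ribosome quality control genes 4 rose and 4 fell in rABS against Parental, where 59.8% of all genes were called. In rABS+shAPE1 against rABS+shCtrl 2 rose and 2 fell, where 36.6% of all genes were called. Neither share of this list exceeded that of all genes. Mitochondrial ribosomal proteins, which belong to a separate ribosome, gave 45 higher and 6 lower of 78 in rABS against Parental (median 0.406), and 4 higher and 17 lower in rABS+shAPE1 against rABS+shCtrl (median -0.021).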

How the data were processed

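PolyA RNA of 12 OE33 libraries, 3 in each of 4 groups, was sequenced. The deposited file holds raw read counts per gene, which the authors made with Trimmomatic 0.36, STAR 2.5.2b and featureCounts of Subread 1.5.2 on GRCh38, per the submitters' processing notes; the strand setting was not given, so overlapping genes cannot be told apart. Of 57500 gene IDs, 56898 matched GENCODE 29. Counts were tested with edgeR 4.0.16 (robust quasi-likelihood, TMM scaling, filterByExpr with at least 10 counts and 15 in total), all 12 libraries with 1 term per group, adjusted over 15805 genes and called at an adjusted p under 0.05. CPM uses TMM-scaled library sizes, except sums of markers and lists, which are unscaled. Alternatives used DESeq2 1.42.0 and limma 3.58.1 in R 4.3.3, and other scalings, filters, a fold threshold of 1.2, a replicate block, offsets for GC content, the 6 libraries of a comparison alone and leaving out each library. On simulated counts for rABS against Parental (15404 genes), 40% of 1.25-fold, 74% of 1.5-fold, 90% of 2-fold and 98% of 4-fold changes were recovered, and 12 of 163 calls were false. Only 50 genes were changed at each fold, far fewer than were called in the data. These rates therefore need not hold for the members.

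Named genes were APEX1, the 5 largest called changes each way in a comparison, members of set roles, paralog pairs and up to 4 genes of each list. The members and lists were chosen with earlier results of these data known. Replicate numbers did not pair samples. No batch is given in the labels. Some genes within the naming rule are not reported here. Figures were drawn with matplotlib 3.10.9.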

Additional observations from a re-analysis of the deposited data

How the results depend on the processing

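Of the recomputed summary values 447 stayed within 1.5 times or 1 SD of the reported value and 17 moved. With library totals alone, the members' median was -0.04 in rABS against Parental and -0.08 in rABS+shCtrl against Parental, 8 members were called in rABS+shCtrl against rABS (4 higher, 4 lower) and 30 in rABS+shCtrl against Parental. In that setting RPSA turned to 0.01 in rABS+shCtrl against Parental. When a fold above 1.2 was required, 13 members were called in rABS against Parental (2 higher, 11 lower) and 24 in rABS+shCtrl against Parental, 1 member and 2517 genes in rABS+shCtrl against rABS, and 1 member and 2747 genes in rABS+shAPE1 against rABS+shCtrl. With the 6 libraries of rABS+shCtrl and rABS alone, 20 members were called. The cause was not tested, except that the fold threshold is stricter by construction. Leaving out 1 library gave 31 to 48 members called in rABS against Parental, 5 to 18 in rABS+shCtrl against rABS, 16 to 27 in rABS+shAPE1 against rABS+shCtrl and 44 to 54 in rABS+shCtrl against Parental. The large minus small median log2 fold change ran from -0.02 to 0.04 in rABS against Parental. It ran from -0.08 to 0.03 in rABS+shAPE1 against rABS+shCtrl. Of 154 named calls 94 were kept in every alternative run, 59 were lost under the fold threshold, 21 under library totals and 27 without some library. Replicate numbers did not pair the samples: over 9548 genes, deviations of same-numbered libraries from their groups correlated at -0.56 to 0.29. Of 12 libraries, 0 correlated best with its own number. Over the 83 members the same correlations ran from -0.68 to 0.67. With the replicate block 41, 10, 21 and 52 members were called in rABS against Parental, rABS+shCtrl against rABS, rABS+shAPE1 against rABS+shCtrl and rABS+shCtrl against Parental. The test over all groups was not recomputed for DESeq2, voom, the fold threshold or the 6 libraries alone. Small changes were often missed in simulated counts, though far fewer genes changed there than were called in the data. With 3 libraries a group, an uncalled member is not shown to be equal.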
